A study of Bos taurus with 21 samples.

Results

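Entries 6_10969 and 27_38734 are 2 of the 126 small RNA entries listed for extracellular vesicles from bovine milk, and 2 of the 37 that carry a provisional identifier in place of a miRNA name. They were chosen by their measured RPM, because all 7 libraries from cows with subclinical mastitis lay above the median of the libraries from healthy cows. Small RNA was sequenced from the vesicles of 21 cows: 7 with clinical mastitis, 7 with subclinical mastitis and 7 healthy cows that served as controls. Each cow gave 1 library, and the labels give no breed, age, parity, pathogen or treatment. Values are in RPM, an entry's reads out of every 1000000 that the library holds for listed entries. The steps between the values show how many reads these were, 2851 to 5511 per clinical, 1785 to 4979 per subclinical and 954 to 9587 per healthy library, so 1 read was worth 104.3 to 1048 RPM.

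Mastitis is an inflammation of the udder, usually after bacteria enter through the teat canal. In the clinical form the milk or udder is visibly altered, and in the subclinical form only the milk's cell content or bacteriology shows it. Extracellular vesicles are membrane-bound particles that mammary and immune cells release into milk, and they carry small RNAs. A mature miRNA guides a silencing complex to messenger RNAs that pair with its seed, the bases near its 5′ end. Small RNA pipelines give a provisional identifier to a locus that has reads but no database name. The table pairs neither entry with a sequence, a position or a gene, so neither a seed nor a role can be given, and both are described by their levels.

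The rule can hold only for entries above 0 in all 7 subclinical libraries, which were 21 of 126 (16.7%). It also held for 3 further entries, so that 5 of 126 (3.97%), or 5 of those 21, met it. The 3 were 18_30249, 4_8133 and miR-21-5p, a broadly expressed miRNA known to be induced by inflammatory signals. Just inside the rule were 4_8133, whose lowest subclinical library had 12051 RPM against a healthy median of 10870 RPM, and 18_30249, with 1268 RPM against 1166 RPM. For 6_10969 the lowest subclinical library had 4565 RPM against a healthy median of 2276 RPM, and for 27_38734 it had 334.0 RPM against 104.3 RPM. Both of the last values are 1 read, in subclinical 4 and healthy 2, so 27_38734 met the rule by 1 read. Counting the 5 provisional entries just outside, with 6 of 7 subclinical libraries above the healthy median, 10 of 126 (7.94%) came this close, all among those 21. Among those outside was 12_21573, whose lowest subclinical library had 8435 RPM against a healthy median of 12579 RPM. Of the 3 further entries, 18_30249 had medians of 802.2 RPM in clinical, 3226 RPM in subclinical and 1166 RPM in healthy libraries, and 4_8133 had 16369, 17009 and 10870 RPM in the same order. The medians of miR-21-5p were 0 RPM in clinical, 602.5 RPM in subclinical and 0 RPM in healthy libraries. Its lowest subclinical value, 253.6 RPM, was 1 read. Of the 5 entries it alone was called in clinical against subclinical milk (limma adjusted p = 0.000241). The rule used the subclinical values, so that p is no support for a difference. The exact permutation test called 0 entries in this comparison.

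**Figure D1:**
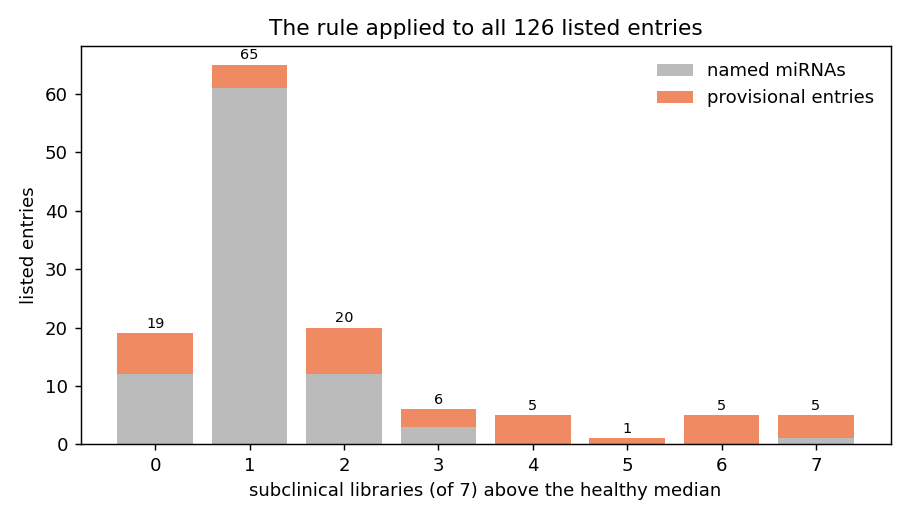
Number of listed entries (vertical axis) by how many of the 7 subclinical libraries lay above the entry's healthy median (horizontal axis), with named miRNAs in grey and provisional entries in orange. The bar at 7 holds 5 entries, 4 of them provisional, and the bar at 6 holds 5 provisional entries.

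Entry 6_10969 had its highest group median in subclinical milk, at 1.12% of the listed reads, against 0.281% in clinical and 0.228% in healthy milk. In subclinical libraries 1, 2, 3, 4, 5, 6 and 8 it had 4565, 5042, 11247, 11356, 16129, 12915 and 9855 RPM, which were 9 to 56 reads per library. In healthy libraries 1, 2, 3, 4, 5, 6 and 9 it had 1166, 1773, 2356, 6345, 1048, 3197 and 2276 RPM, which were 1 to 20 reads per library. All subclinical libraries lay above 6 of the 7 healthy ones, and the groups overlapped through healthy 4, which was above subclinical 1 and 2. How many other entries were separated this far was not counted. The medians were 11247 RPM in subclinical and 2276 RPM in healthy libraries, a ratio of 4.94, and the means were 10158 ± 4152 RPM and 2594 ± 1812 RPM (SD, n = 7 each). On the log2(RPM + 1) scale the fitted difference, subclinical minus healthy, was 2.09 (SE 0.72). Since this contrast chose the entry, these values are a description and no p is given.

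In clinical milk the same entry was spread over a far wider range. Clinical libraries 1, 3, 4, 5, 6, 9 and 10 had 3066, 601.7, 31847, 2806, 2380, 637.8 and 4173 RPM of 6_10969. Clinical 4, with 110 of 3454 reads (3.18%, exact Clopper-Pearson 95% interval 2.62% to 3.83%), was the highest of the 21 libraries. The other 6 clinical libraries all lay below every subclinical library. The rule favoured high subclinical values and this separation was not counted for the other entries, so it is not shown to be particular to 6_10969. The clinical median was 2806 RPM and the mean 6502 ± 11251 RPM (SD, n = 7), and without clinical 4 they were 2593 RPM and 2277 ± 1414 RPM (SD, n = 6). Clinical 3 and 9, with 3 reads each, were lower than any healthy library. The lowest of these, healthy 5, held 1 of 954 reads. Its exact 95% interval, 0.00265% to 0.583%, covers the shares of clinical 3 (0.0602%) and 9 (0.0638%), so their order is not resolved.

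**Figure D2:**
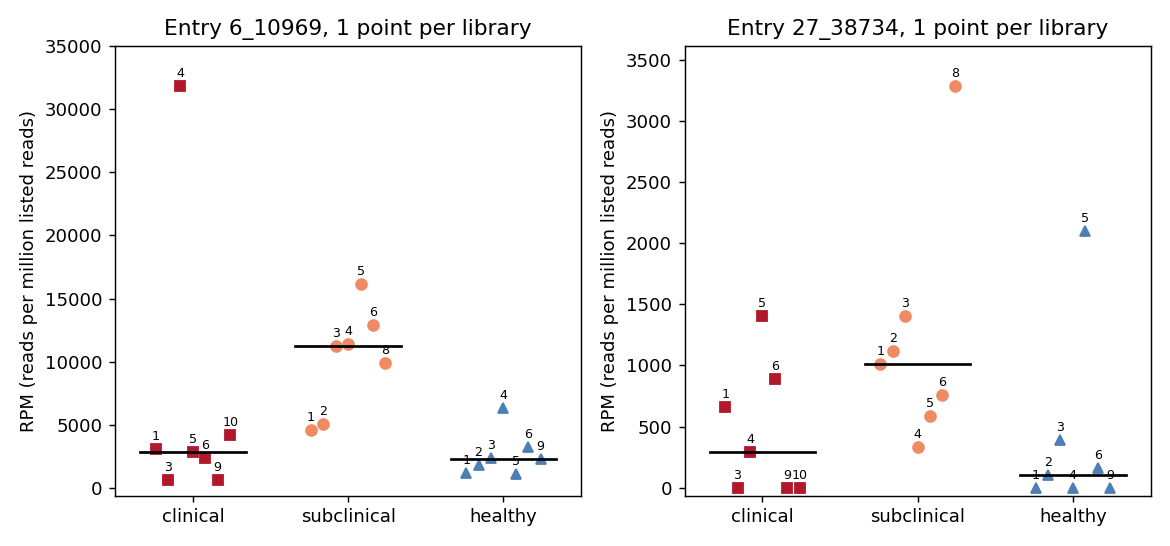
RPM (linear vertical axes, 1 panel per entry) in each clinical (red squares), subclinical (orange circles) and healthy (blue triangles) library, numbered by replicate, with a bar at the group median. The subclinical medians are 11247 RPM for 6_10969 and 1014 RPM for 27_38734, and clinical 4 stands alone at 31847 RPM in the left panel.

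Entry 27_38734 rested on at most 7 reads in any library. It was above 0 in 7 of 7 subclinical, 4 of 7 clinical and 4 of 7 healthy libraries. Subclinical libraries 1, 2, 3, 4, 5, 6 and 8 had 1014, 1120, 1406, 334.0, 586.5, 759.7 and 3285 RPM, which were 4, 2, 7, 1, 2, 3 and 7 reads. Healthy libraries 2, 3, 5 and 6 had 104.3, 392.6, 2096 and 159.8 RPM, which were 1, 1, 2 and 1 reads, and healthy 1, 4 and 9 had 0. The groups overlapped: healthy 5, at 2 of only 954 reads, was above 6 of the 7 subclinical libraries. The medians were 1014 RPM in subclinical and 104.3 RPM in healthy libraries, and the means 1215 ± 979 RPM and 393.3 ± 764.1 RPM (SD, n = 7 each). Without healthy 5 the healthy mean was 109.5 ± 154.1 RPM (SD, n = 6), and without subclinical 8 the subclinical mean was 870.2 ± 387.5 RPM (SD, n = 6). The fitted log2 difference, subclinical minus healthy, was 5.10 (SE 1.87) with a pseudocount of 1 RPM and 1.06 (SE 0.38) with 500 RPM, given as a description with no p.

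Clinical libraries 1, 4, 5 and 6 had 657.0, 289.5, 1403 and 892.3 RPM of 27_38734, which were 3, 1, 4 and 3 reads, and clinical 3, 9 and 10 had 0. The clinical median was 289.5 RPM and the mean 463.1 ± 544.5 RPM (SD, n = 7). The 3 clinical libraries at 0 were the 3 with the most listed reads in their group, and 3 reads, the limit that a count of 0 allows, correspond to 544.4 to 637.8 RPM there. In the 3 healthy libraries at 0 that limit was 568.9 to 951.8 RPM. Subclinical 4 was below all 6 of these limits, and subclinical 5 was below some of them. Subclinical 6 was below that of healthy 4 only (951.8 RPM). Where a subclinical library was below the limit of a library at 0, a difference between them was not detectable at this depth.

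Summed over libraries, 27_38734 had 26 of 23191 reads in subclinical milk, a pooled 1121 RPM (exact Poisson 95% interval 732.4 to 1643), 11 of 29434 in clinical milk, 373.7 RPM (186.6 to 668.7), and 5 of 32059 in healthy milk, 156.0 RPM (50.6 to 364.0). Entry 6_10969 had 244 reads in subclinical milk, 10521 RPM (9242 to 11928), 169 in clinical milk, 5742 RPM (4909 to 6676), and 81 in healthy milk, 2527 RPM (2006 to 3140). Of the 169 clinical reads 110 came from clinical 4, and without that library the clinical rate was 2271 RPM (1729 to 2929). These intervals cover counting error only. The spread between libraries given above is wider and holds both counting error and differences between cows.

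**Figure D3:**
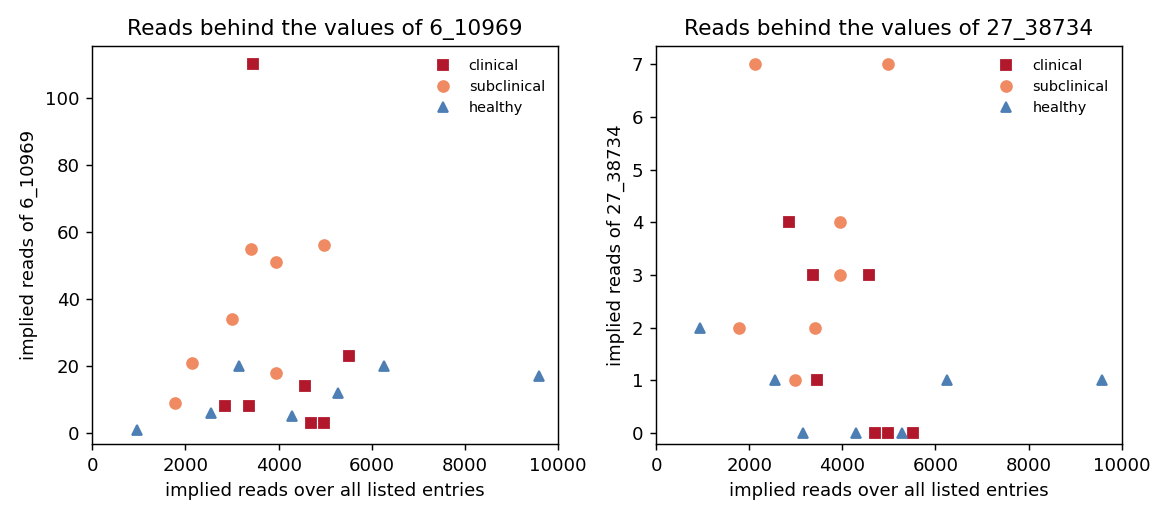
Reads of each entry (vertical axes) against the reads over all listed entries of the library (horizontal axes), as implied by the steps of the RPM values, with 1 point per library. No library has more than 7 reads of 27_38734, whereas 6_10969 reaches 56 reads in subclinical and 110 in clinical libraries.

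Clinical libraries did not enter the choice of the entries, and their comparisons with each other group were tested. One side of each comparison did enter it: subclinical values were chosen to be high relative to healthy ones, so the p-values against subclinical milk may be too small. By the same rule healthy medians were chosen to be low relative to subclinical values, so differences of clinical minus healthy milk may be too high. Both entries had lower values in clinical than in subclinical milk, and neither passed. For 6_10969 the medians were 2806 RPM in clinical and 11247 RPM in subclinical libraries. Of the 7 clinical libraries 6 lay below the subclinical median, as at least 6 did for 8 of 126 entries (6.35%). These 6 also lay below the lowest subclinical library, which the rule favoured to be high, and this was not counted for the other entries. The fitted log2 difference was -1.78 (SE 0.72, 95% interval -3.23 to -0.34), and limma's moderated test gave an adjusted p of 0.257 over 126 entries. An exact two-sided permutation test gave an unadjusted p of 0.0425 (adjusted p = 0.645). Without clinical 4 the difference was -2.38 (adjusted p = 0.0474 by limma over 125 entries). Clinical 4 is the one clinical library above the subclinical ones and the rule used the subclinical values, so that p is no support for a difference.

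For 27_38734 the medians were 289.5 RPM in clinical and 1014 RPM in subclinical libraries, with 6 of 7 clinical libraries below the subclinical median. The fitted log2 difference was -4.52 (SE 1.87, 95% interval -8.24 to -0.79; limma adjusted p = 0.257), and the exact two-sided permutation p was 0.046 unadjusted and 0.645 adjusted. The size depends on the pseudocount because 3 clinical libraries are at 0: with 500 RPM it was -0.87. The background in this comparison was 4 of 126 entries called (3.17%), all lower in clinical milk, and 8 of 126 (6.35%) had at least 6 of 7 clinical libraries below the subclinical median.

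Against healthy milk the clinical libraries showed no difference past the threshold for either entry. The medians of 6_10969 were 2806 RPM in clinical and 2276 RPM in healthy libraries, 5 of 7 clinical libraries lay above the healthy median, as at least 5 did for 8 of 126 entries (6.35%). The fitted log2 difference was 0.31 (SE 0.72, 95% interval -1.14 to 1.75; limma adjusted p = 1). Its sign rests on clinical 4, since without that library the difference was -0.29. The medians of 27_38734 were 289.5 RPM in clinical and 104.3 RPM in healthy libraries, with a fitted log2 difference of 0.59 (SE 1.87, 95% interval -3.14 to 4.31; limma adjusted p = 1). Its sign turned in 6 of the fits that leave out 1 clinical or healthy library, where it ranged from -0.26 to 1.62. These intervals are wide on both sides of 0, so the data do not show that the groups are alike. In this comparison 4 of 126 entries (3.17%) were called.

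In order of median, 6_10969 ran from subclinical through clinical to healthy libraries, and the step between clinical and healthy was within the spread of the libraries. For 27_38734 the subclinical median was the highest, while the clinical and healthy medians are 1 read each, in clinical 4 and healthy 2, and their order reflects the 3454 and 9587 listed reads of these libraries.

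**Figure D4:**
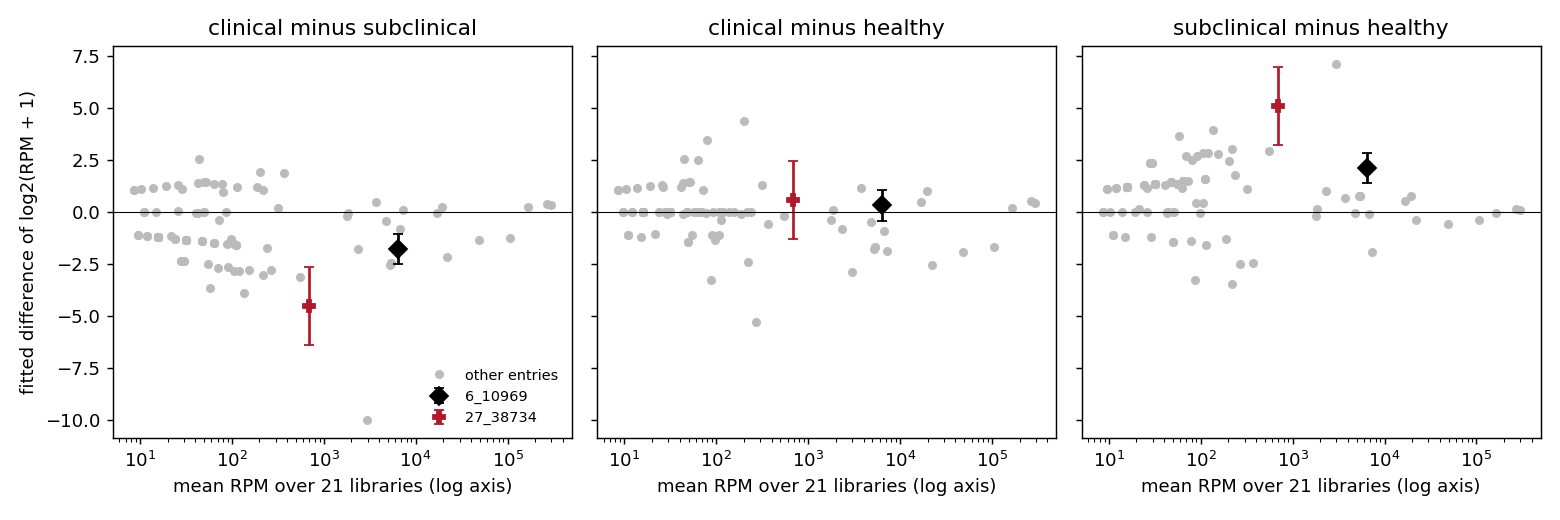
Fitted difference of log2(RPM + 1) (vertical axis) against mean RPM over the 21 libraries (horizontal log axis) for all 126 entries, with 6_10969 (black diamond) and 27_38734 (red cross) shown with their SE. Both lie below 0 in clinical minus subclinical (-1.78 and -4.52), near 0 in clinical minus healthy (0.31 and 0.59) and above 0 in subclinical minus healthy (2.09 and 5.10), the contrast that chose them.

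Other provisional entries gave no common direction. In subclinical against healthy milk the 35 other provisional entries had 16 fitted differences above 0 and 14 below, with a median of 0.00, beside 93 above 0 and 23 below over all 126 entries, with a median of 1.198. Named miRNAs made up 12.7% of the reads in subclinical 4 and at most 0.734% in any other library, and their part in that larger median was not tested. Limma called 0 of 126 entries (0%) in that contrast, with 6 at an unadjusted p under 0.05, and the exact permutation test also called 0, with 5 at an unadjusted p under 0.05. In clinical against subclinical milk 3 of the 35 were called, all lower, and in clinical against healthy milk 1 higher and 3 lower. In subclinical 4 itself 6_10969 had 11356 RPM, the third highest subclinical value, and 27_38734 had 334.0 RPM, the lowest. Without subclinical 4 the subclinical means were 9959 ± 4511 RPM for 6_10969 and 1362 ± 984 RPM for 27_38734 (SD, n = 6).

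By mean RPM over all libraries, without regard to length, 6_10969 was 11th and 27_38734 was 21st of the 126 entries. Next to 6_10969 stood 26_37774, with medians of 3008 RPM in clinical, 5580 RPM in subclinical and 6448 RPM in healthy libraries, and 18_29617, with 2455, 3804 and 2845 RPM in the same order. Next to 27_38734 stood 2_2859, with 1404, 1773 and 1517 RPM, and miR-30a-5p, a member of the miR-30 family, which was above 0 in 5 libraries only. Entry 6_10969 was among the 16 entries (12.7%) above 0 in all 21 libraries. Neither entry held the same values as another entry in all libraries, whereas 65 of the 126 did.

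No correlation between the entries within groups passed a test. Pearson's r between 6_10969 and 27_38734 was -0.10 in clinical, -0.20 in subclinical and -0.40 in healthy libraries (n = 7 each), with exact permutation p of 0.938, 0.652 and 0.233 and adjusted p of 0.938, 0.839 and 0.7 over 9 relations. Spearman's rho was 0.185, -0.571 and -0.259, with exact permutation p of 0.719, 0.2 and 0.59 and adjusted p of 0.906, 0.9 and 0.906. Without the 2 libraries farthest from the median of 6_10969, r was 0.116, -0.622 and 0.425. The highest 6_10969 library in the subclinical group, subclinical 5, had the second lowest 27_38734 value, and the highest 27_38734 library, subclinical 8, had 9855 RPM of 6_10969, below the group median.

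Depth was compared with level in the same way. Listed reads are also the denominator of the level, and a read is worth more RPM in a shallower library, so these measures are not independent. For 27_38734 in clinical libraries, level and number of listed reads had a rho of -0.927 (exact permutation p = 0.00952, adjusted p = 0.0857) and r of -0.819 (exact permutation p = 0.0286, adjusted p = 0.257; n = 7). Without the 2 libraries farthest from the median depth rho was -0.783 and r was -0.451. In the other groups and for 6_10969, r lay between -0.588 and 0.304, and the lowest exact permutation p was 0.195 (adjusted p = 0.7). Without the 2 libraries farthest from the median depth, r was -0.845 for 6_10969 in clinical and -0.73 for 27_38734 in subclinical libraries, with 5 libraries each, and lay between -0.362 and -0.0852 in the other 3 cases. The part of depth in the levels of 27_38734 was not tested.

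Over the 21 libraries, the entries most like 6_10969 among the 22 others above 0 in at least 10 libraries were 17_28475, 17_28203 and 17_28610, with Spearman's rho of 0.364, 0.274 and 0.274. Least like it were 13_22779, 2_2827 and 16_27381, with rho of -0.418, -0.390 and -0.336. For 27_38734 the most alike were 15_26127, 18_30249 and 18_29617, which holds the same values as 2_4412 (rho 0.491, 0.469 and 0.468), and the least alike 13_22779, X_42271 and 2_2827 (-0.248, -0.127 and -0.116). All are weak, they share the scaling to a fixed sum and the group differences, and they are given as descriptions. After each group's mean log2 level was subtracted, Pearson's r was 0.317, 0.428 and 0.374 for the entries most like 6_10969, and 0.316, 0.243 and 0.426 for those most like 27_38734, in the order named. On that measure X_42748 (0.615), 17_28475 (0.582) and 29_39931 (0.456) were more like 27_38734 than these, and X_41367 (0.401) and 18_30013 (0.383) came after 17_28203 for 6_10969.

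Markers of cells that could add vesicles to inflamed milk were near the limit of detection. Of 9 leukocyte miRNAs 2 were listed, miR-181a and miR-181b, with 0 reads in clinical, 3 in subclinical and 0 in healthy libraries, and at most 2 in any library. miR-223 and miR-142, which define myeloid and blood cells, have no entry in the table used here. Of 8 epithelial miRNAs miR-182 and miR-183 were listed, with 0, 5 and 0 reads (0 to 4 per library), and of 4 erythrocyte miRNAs miR-16b, with 0, 2 and 0. Of these 10 subclinical reads 8 were in subclinical 4. Their part in the levels of the entries was not tested, and fewer vesicles of one kind and less of an RNA per vesicle cannot be told apart here.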

How the data were processed

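Vesicle RNA was isolated with a miRNeasy kit and sequencing adapters were ligated with a TruSeq kit for small RNA, as stated per the labels. Bowtie, edgeR and the cattle build ARS-UCD1.2 are named without roles or versions, per the submitters' processing notes; for trimming, counting and the tool behind the provisional identifiers the sources used here name nothing. The authors deposited 1 table of 126 entries named TPM. Its columns sum to 1000000 and hold whole multiples of their smallest value (100% of 629 values above 0, within 0.01 of a read), so the deposited values are RPM, with no division by length. Reads were implied by taking that smallest value as 1 read; they cover listed entries, not the library's depth. The 3 further columns equal the group means to within 4.286e-07 RPM and were not used. Clinical columns carry another prefix than the sample titles and were matched by number.

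Every one of 63 within-group pairs of libraries differed by more than counting noise (chi-square per degree of freedom at least 1.85, where an entry needed 10 reads in the pair). No count model was used, because the deposited values are scaled per library and are not counts. Main tests used limma-trend (limma 3.58.1, R 4.3.3) on log2(RPM + 1) with 21 libraries, two-sided, Benjamini-Hochberg adjusted over all 126 entries, each of which had a mean of 1 RPM or more, and a threshold of 0.05. Exact permutation used all 3432 regroupings of 7 against 7 (smallest p 0.000583) and 5040 pairings for correlations. SEs are moderated. Intervals, at 95%, are exact for shares and pooled rates and from limma's moderated t for fitted differences. Fits were tested on simulated data, with changes only in entries averaging at least 1000 RPM. The mean of 27_38734 was 690.5 RPM, so that test does not cover it. The spread between simulated libraries was a fixed setting, not taken from the 2 entries. Python 3.11.15, NumPy 2.4.6, SciPy 1.17.1, pandas 2.3.3 and matplotlib 3.10.9 were used.

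The 2 entries, lists and tests were chosen with earlier results of these data known. Named entries were the 2, their neighbours in mean RPM, the 3 most and 3 least alike, and those at the edge of the rule, which were chosen after their values were seen. Alternatives were pseudocounts, scalings, filters, 2 groups per fit, no trend, exact permutation, a replicate block, left-out libraries and merged identical entries.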

Additional observations from a re-analysis of the deposited data

Results flagged for a closer look

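In 4 of 6 groups of 7 libraries, 1 library stood apart on the RPM scale by Dixon's gap test at 95%. On the log2(RPM + 1) scale this was so in 0 of 6. Chance gives about 1 flag in 20 groups of normally distributed values, which RPM values need not be. For 6_10969, clinical 4 had 31847 RPM, and its gap to the next clinical library was 0.886 of the group's range. Also for 6_10969, healthy 4 had 6345 RPM, with a gap of 0.594 of the range. For 27_38734, subclinical 8 had 3285 RPM (7 of 2131 reads), with a gap of 0.637 of the range. Also for 27_38734, healthy 5 had 2096 RPM (2 of 954 reads, exact 95% interval 0.0254% to 0.755% of the reads), with a gap of 0.813 of the range. The means without each of these libraries were 2277 RPM for clinical and 1969 RPM for healthy libraries of 6_10969, and 870.2 RPM for subclinical and 109.5 RPM for healthy libraries of 27_38734.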

How the results depend on the processing

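The difference of 6_10969 between subclinical and healthy milk lay between 1.84 and 2.35 in all 33 alternatives. That of 27_38734 was 1.06 with a pseudocount of 500 RPM and 4.30 to 6.14 with 1 library left out. In clinical against subclinical milk 6_10969 stayed below 0 in 34 alternatives (-2.38 to -1.42 with 1 library left out). Limma's adjusted p was under 0.05 without clinical 4, or clinical 4 and subclinical 4 together (-2.33, adjusted p = 0.0187 over 75 entries). Keeping means of at least 1000 RPM gave -1.78 (adjusted p = 0.0415 over 20 entries). The highest adjusted p, by the exact test, was 0.645. The rule used the subclinical values, so no pass supports a difference. For 27_38734 the same difference stayed below 0 in 33 alternatives (-5.36 to -3.62 with 1 library left out) and never passed (adjusted p 0.0756 to 0.645); the filter at 1000 RPM removes it. In clinical against healthy milk 6_10969 reversed to -0.29 without clinical 4, with or without subclinical 4 (-0.29 to 0.67 with 1 library left out), and 27_38734 ranged from -0.26 to 1.62 with 1 library left out. With median-of-ratios scaling the log2 differences moved, for entries without values at 0, such as 6_10969, by 0.241 in clinical against healthy, 0.272 in clinical against subclinical and -0.0306 in subclinical against healthy milk. The differences of 27_38734, which has values at 0, were 0.465, -4.49 and 4.95 under that scaling, and no sign of either entry turned.

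Same-numbered libraries did not deviate together (1 of 17 pairs had a correlation over 0.1). Most entries were at 0 in most libraries, so this cannot decide whether the numbers pair cows. With the replicate block the differences of 6_10969 and 27_38734 were -1.81 and -2.09 in clinical against subclinical milk (limma adjusted p = 0.317 and 0.474), 0.12 and 1.77 in clinical against healthy milk (0.987 each), and 1.93 and 3.86 in subclinical against healthy milk.

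Entries called in subclinical against healthy milk, 0 by limma, were 1 with a pseudocount of 10 RPM, median-of-ratios scaling or no trend, 2 with identical entries merged, 3 with the 1000 RPM filter, 4 with 2 groups per fit and 0 to 1 with 1 library left out. In clinical against healthy milk, 4 became 7 with that filter, 0 without trend, with the replicate block or by exact permutation, and 3 to 6 with 1 library left out. In clinical against subclinical milk, 4 became 7 with the filter, 2 with median-of-ratios scaling, 1 without trend or with the replicate block, 0 with a pseudocount of 500 RPM or by exact permutation, and 3 to 5 with 1 library left out. The causes were not tested. Depth limits the comparisons of 27_38734, which rest on 1 to 7 reads in each library above 0.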
